A study of Gallus gallus with 12 samples.

Results

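The stretch of the chicken Z chromosome from 24 to 32 Mb (GRCg6a) was examined in primordial germ cells (PGCs), the embryonic precursors of sperm and eggs. Its members were all genes of the deposited expression table whose smallest start lay in the stretch, with 1 gene set aside, so that position decided which genes belonged to it. There were 117 members among the 1245 Z genes and the 24356 genes of the table. They were compared with the other 1127 Z genes and with 22504 genes on the numbered chromosomes, called autosomes here.

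The PGCs came from white Leghorn embryos and were sorted as cells positive for SSEA-1, a surface antigen of early chicken germ cells. They were taken from blood at E2.5 (circulating PGCs, embryonic day 2.5) and from gonads at E4.5 and E6.5 (gonadal PGCs). Each stage had 2 libraries from male embryos (ZZ) and 2 from female embryos (ZW), 12 libraries in all, each made from its own pool of 6 to 14 embryos, so a library gives no value for a single embryo. The labels give no treatment and no mutation for any group. Stage and tissue cannot be told apart between E2.5 and the gonadal stages, and fewer cells of a type and less RNA per cell cannot be told apart in such bulk libraries.

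In birds the male carries a pair of Z chromosomes and the female a single one, and the dosage of Z genes is only partly evened out between the sexes. Many Z genes therefore have more RNA in males. On the short arm of the chicken Z lies the male hypermethylated (MHM) region, known from work in other chicken tissues as a place where the DNA is methylated in males and transcribed into long noncoding RNA in females. Genes near it have been described as more evenly expressed between the sexes than other Z genes. The question here was whether the male to female ratio of the genes in this stretch differed from that of other Z genes in PGCs, at each stage.

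Values are given in TPM, read counts corrected for gene length whose total is 1000000 in each library, so that levels can be compared between genes. Between 7185031 and 13749166 reads on genes stood behind each library. The germ cell markers (8 of 10 listed genes found in the table, *DDX4* and *DAZL* among them) summed to 2548 to 4926 TPM, against 2.78 to 13.8 TPM for the 10 markers of gonadal somatic cells. Markers of red blood cells summed to 1714 to 113440 TPM at E2.5, highest in the first female library, and to 59.0 to 527 TPM in the gonadal libraries. Both first E4.5 libraries had the fewest reads and stood apart from the second ones. Their correlations across genes with the second library of the same sex were 0.884 in males and 0.868 in females, against 0.935 to 0.970 in the other groups.

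Of the 117 members, 58 had a gene name and 59 had only an Ensembl identifier. The table typed 37 of them as long noncoding RNA (lncRNA), 16 as protein coding, 4 as miRNA and 2 as miscellaneous RNA, and gave no type for the 58 named genes. Most of the annotated genes of the stretch had little or no RNA in PGCs. A mean of 5 TPM or more over the 12 libraries was reached by 43 members, of which 36 were named, and a mean of 100 TPM or more by 9. In contrast, 23 members were listed at 0 in every library and 17 others never had more than 3 reads in a library. The most abundant members were *NSA2*, which acts in assembly of the large ribosomal subunit, the unnamed protein coding gene ENSGALG00000013512 and *PSIP1*, which codes for a chromatin-binding protein. *RCL1*, *PUM3* and *UTP15*, which act in the nucleolus on ribosomal RNA, and the mitochondrial genes *MRPS27* and *PTCD2* were also among the 10 most abundant. *DMRT3*, of a family of sex- and development-related transcription factors, stayed between 0 and 3.56 TPM.

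The members' median level was about 2 times higher in males at every stage, close to the median of other Z genes. Over genes whose mean reached 5 TPM in the stage's 4 libraries, the median ratio of the male mean to the female mean was 2.15 for 43 members at E2.5, 1.96 for 41 members at E4.5 and 2.14 for 45 members at E6.5. The rest of Z had medians of 2.33 (409 genes), 1.82 (395 genes) and 1.88 (389 genes). The autosomal medians were 1.28, 0.958 and 1.02, so that at E2.5 most autosomal genes, 6243 of 8326, were also higher in males. The first E2.5 female library, which had the most red blood cell RNA, is among these libraries, and without it the members' median log2 ratio at E2.5 was 0.99, against 1.10 with it. The part of red blood cells in this result was not tested. Divided by the autosomal median, the members' ratios were 1.68, 2.04 and 2.10 and those of the rest of Z 1.82, 1.90 and 1.84.

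On the log2 scale, the members' median lay 0.11 below that of the rest of Z at E2.5, 0.10 above it at E4.5 and 0.19 above it at E6.5. Across the 4 possible pairings of a male with a female library, which share libraries, the E2.5 difference lay between -0.30 and -0.013. The E4.5 difference lay between -0.17 and 0.056 and the E6.5 difference between 0.10 and 0.28. The sign was thus the same in all 4 pairings at E2.5 and at E6.5, but not at E4.5. The E6.5 difference was -0.12 over the 20 members with a mean of 20 TPM or more, so its direction depended on the minimum level. At E4.5 the sign turned, with -0.24 without the first male library, -0.056 without the second male library and -0.061 without the second female library. At E2.5 it turned to 0.077 without the first male library. No test over the members was made.

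**Figure D1:**
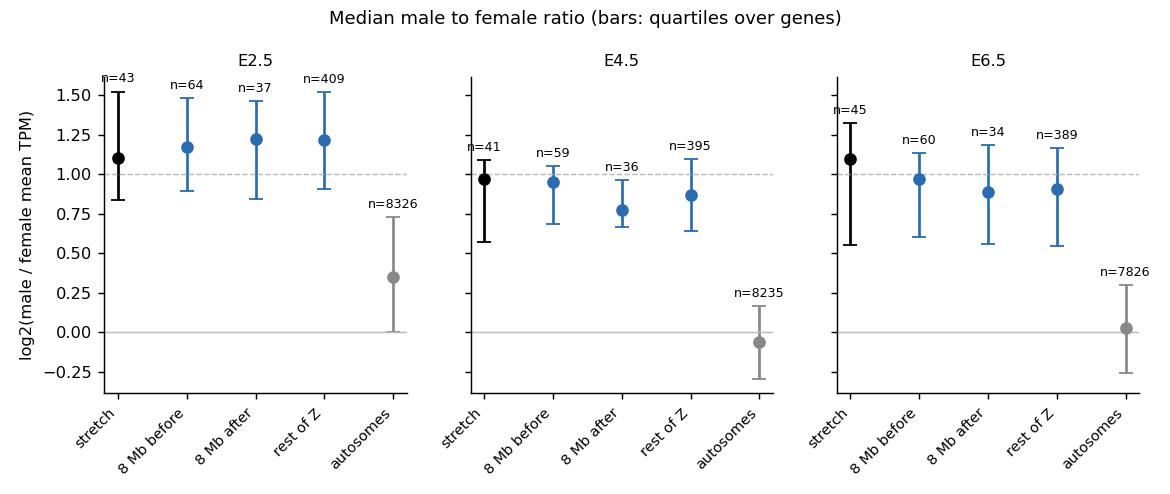
Median male to female ratio by stage for the stretch, the 8 Mb before it, the 8 Mb after it, the rest of Z and the autosomes, as log2 of the male mean TPM over the female mean TPM (points, medians over genes, bars, quartiles over genes, n, number of genes). The stretch had quartiles of 0.84 and 1.52 for E2.5, 0.57 and 1.09 for E4.5, and 0.55 and 1.32 for E6.5, and these overlapped those of every other Z set.

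The neighbouring stretches gave a like picture. Genes starting from 16 to 24 Mb had median ratios of 2.25, 1.93 and 1.96 at the 3 stages in order of age, and genes starting from 32 to 40 Mb had 2.33, 1.71 and 1.85. Windows of 1 Mb were compared over genes whose mean reached 5 TPM at the stage. The window from 27 to 28 Mb had median ratios of 2.21 (11 genes), 1.97 (10 genes) and 2.17 (12 genes). Among its genes, *AK3* counted at every stage and *JAK2* only at E2.5. A female-high lncRNA of this window, described later, never reached that mean and did not count. Windows outside the stretch with 5 or more genes had medians between 1.72 and 3.31 at E2.5, between 1.45 and 2.37 at E4.5 and between 1.19 and 2.80 at E6.5. Every window was thin, with at most 15 genes. No window of the stretch with 5 or more genes fell outside the range of the other windows.

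**Figure D2:**
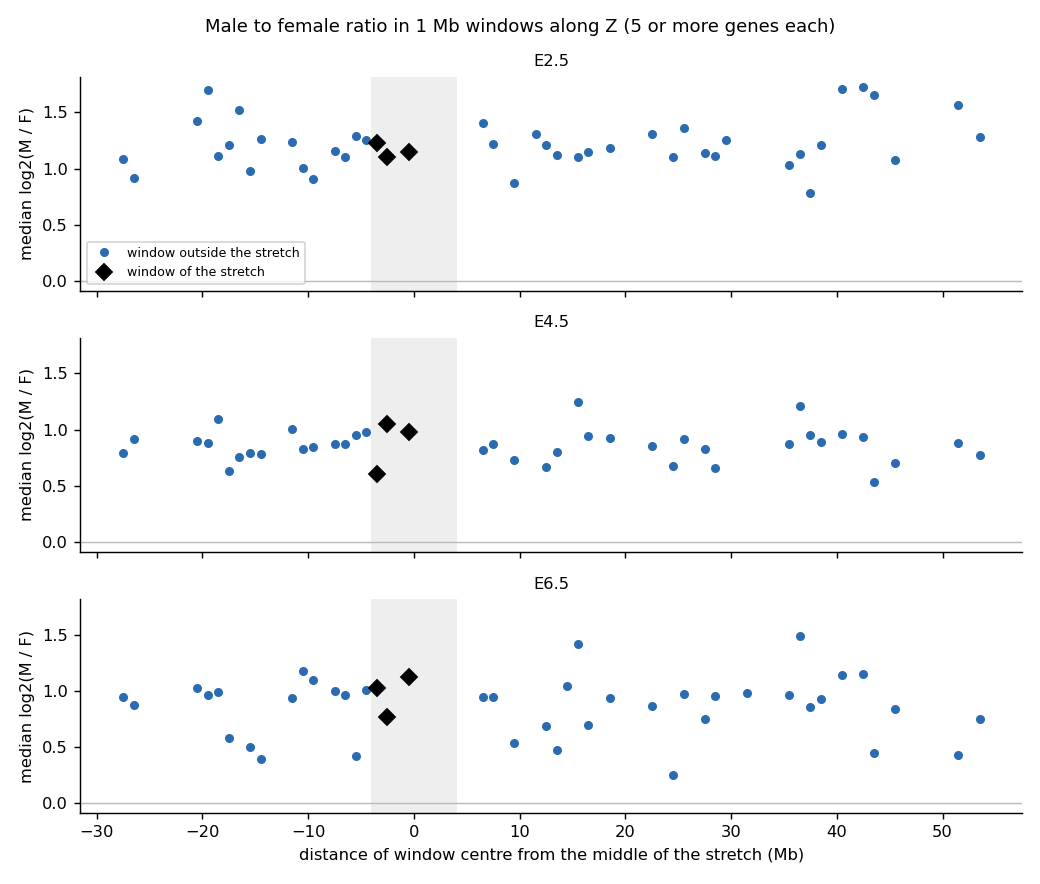
Median log2 male to female ratio in 1 Mb windows along Z against the distance of the window centre from the middle of the stretch, for windows with 5 or more genes (black diamonds, windows of the stretch, blue points, windows outside it, grey band, the stretch). At each stage the black diamonds lay within the range of the blue points.

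The members' summed level separated the sexes, while their share of Z did not. The sum was 3484 to 4283 TPM in the 6 male libraries and 1997 to 2430 TPM in the 6 female libraries, which did not overlap. As a share of all Z TPM the members made up 5.20% to 6.55% in males and 5.58% to 6.60% in females, and these ranges overlapped.

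The ratios of single members were little related between stages, and so were those of the rest of Z. Across the 42 members measured at both E2.5 and E6.5, Spearman's rho of the ratios was -0.05 (Pearson's r = -0.25). Across 41 members it was -0.18 between E2.5 and E4.5 (r = -0.21) and 0.26 between E4.5 and E6.5 (r = 0.20). In the rest of Z, rho was 0.04 between E2.5 and E6.5, 0.09 between E2.5 and E4.5 and 0.19 between E4.5 and E6.5. These are descriptions across genes, which are not independent replicates, although the stages share no library. The ratios at single stages ran widely at low level. At E2.5 *PGM5*, a phosphoglucomutase-like gene, had 39.8 and 7.59 TPM in males and 1.24 and 0.762 TPM in females, with a male library far above the other 3.

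**Figure D3:**
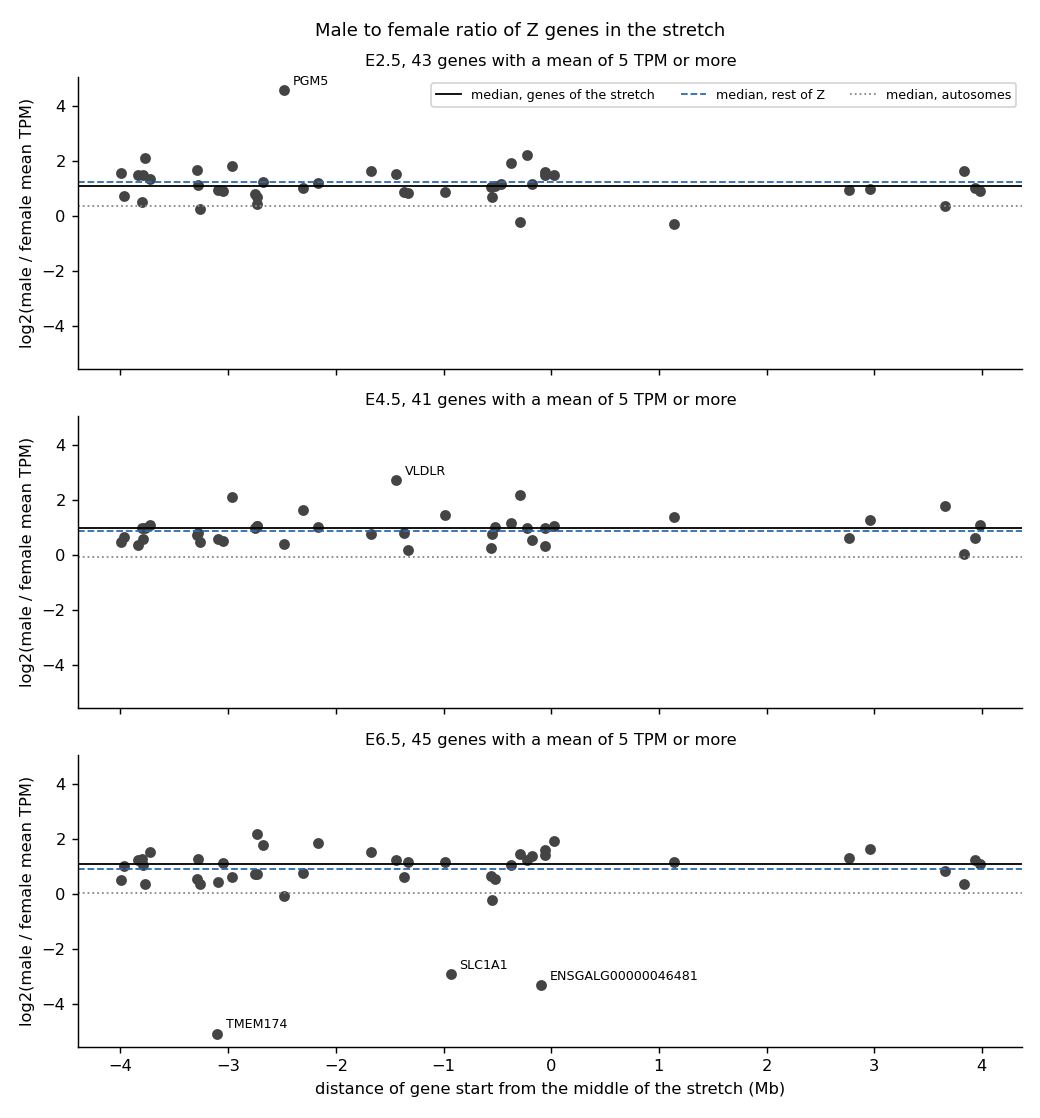
Log2 of the male mean TPM over the female mean TPM for each member with a mean of 5 TPM or more at the stage, against the distance of its start from the middle of the stretch (Mb), with lines for the medians of the members, the rest of Z and the autosomes. Most points lie near the Z medians along the whole stretch, and *TMEM174*, *SLC1A1* and ENSGALG00000046481 lie far below 0 at E6.5.

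Each gene was then tested with limma on log2(TPM + 1), with p-values adjusted over all genes tested by the Benjamini-Hochberg method. Over the stages, with stage as a term and all 12 libraries, 65 members had 1 TPM or more in at least 2 libraries and were tested. Of these, 9 were higher in males at an adjusted p under 0.05 (0.855% of all genes tested) and 0 were higher in females (0.191% of all genes tested). At an unadjusted p under 0.05, 42 members were higher in males and 1 in females, against 415 and 1 of 604 genes in the rest of Z. Among all 14153 genes tested, 851 and 175 were. In the rest of Z, 106 of 604 genes were called higher in males, so the members' share was near that of other Z genes. All 43 members with a mean of 5 TPM or more had a positive estimate, from 0.13 to 1.51 with an SD of 0.29 over genes, against 396 of 405 genes and an SD of 0.41 in the rest of Z. Both male libraries were above both female libraries at all 3 stages for 19 of the 65 members, against 199 of 604 genes in the rest of Z and 2.16% of all genes tested. The opposite order at all 3 stages was seen for 0 members (0.403% of all genes tested).

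Among genes for chromatin proteins, *UHRF2*, a ubiquitin ligase that binds modified DNA, had the lowest adjusted p of the stretch. It had 58.0 and 39.8 TPM in males against 13.1 and 19.2 TPM in females at E2.5, 27.4 and 19.8 against 12.2 and 11.9 TPM at E4.5, and 34.4 and 33.1 against 11.6 and 10.6 TPM at E6.5. Males were above females at each stage without overlap. Its difference over the stages was 1.32 ± 0.23 on the log2(TPM + 1) scale (male minus female, ± SE, limma adjusted p = 0.0116). *PSIP1* had 377 and 350.4 TPM in males against 152 and 209.8 TPM in females at E2.5, 336 and 303 against 255 and 167 TPM at E4.5, and 408 and 363 against 196 and 126 TPM at E6.5, again without overlap at any stage, and at E4.5 the second male library was the nearest to the females. The difference of *PSIP1* was 0.98 ± 0.18 (limma adjusted p = 0.0179). *SMARCA2*, an ATPase of the SWI/SNF remodelling complex, had 30.5 and 27.7 TPM in male and 8.50 and 11.4 TPM in female libraries at E6.5 and a difference over the stages of 1.25 ± 0.29 that missed the threshold (limma adjusted p = 0.0608). *KDM4C*, a histone demethylase, also missed it at 1.22 ± 0.35 (limma adjusted p = 0.155).

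The genes of ribosome assembly were among the most abundant members. *NSA2* had 557 and 806 TPM in males against 422 and 549 TPM in females at E2.5, 857 and 823 against 398 and 458 TPM at E4.5, and 867 and 783 against 345 and 333 TPM at E6.5, and males were above females at every stage. Its difference was 0.91 ± 0.17 (limma adjusted p = 0.0164). *RCL1*, *PUM3* and *UTP15* had differences of 0.87 ± 0.22, 0.75 ± 0.38 and 0.91 ± 0.30, none of which passed (limma adjusted p = 0.0941, 0.737 and 0.284). *PUM3* showed the spread of the E4.5 libraries, with 83.6 and 405 TPM in males and 46.3 and 237 TPM in females. In both sexes the first library was the low one.

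Of the genes with products in mitochondria, *GLDC*, the glycine decarboxylase of the glycine cleavage system, had the largest called difference. It had 87.6 and 64.0 TPM in males against 25.6 and 28.9 TPM in females at E2.5, 68.1 and 22.1 against 30.5 and 13.1 TPM at E4.5, and 46.1 and 36.4 against 10.8 and 10.6 TPM at E6.5. The sexes overlapped at E4.5 and were well apart at E2.5 and E6.5. Its difference over the stages was 1.40 ± 0.30 (limma adjusted p = 0.0398). *MRPS27*, a protein of the small mitochondrial ribosomal subunit, had 148 and 175 TPM in male and 87.1 and 108 TPM in female libraries at E6.5 and a difference of 0.83 ± 0.18 (limma adjusted p = 0.0459). *PTCD2*, which acts on mitochondrial RNA, had 0.90 ± 0.30 and did not pass (limma adjusted p = 0.284). *AK3*, a mitochondrial adenylate kinase, had 0.46 ± 0.31 (limma adjusted p = 0.845). It was among the 5 lowest members with a mean of 5 TPM or more.

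The other called members belonged to signalling, the cytoskeleton and less studied groups. *RLN3*, the gene of the peptide hormone relaxin-3, had 13.2 and 12.4 TPM in males against 2.36 and 4.39 TPM in females at E2.5, 29.4 and 20.4 against 12.9 and 9.62 TPM at E4.5, and 17.5 and 22.1 against 11.0 and 7.87 TPM at E6.5. The sexes did not overlap at any stage, and the difference was 1.26 ± 0.26 (limma adjusted p = 0.0322). *MAP1B*, which codes for a microtubule-associated protein, had 13.9 and 14.7 TPM in male and 5.47 and 6.75 TPM in female libraries at E2.5 and 7.51 and 10.2 TPM in male and 2.29 and 2.77 TPM in female libraries at E6.5. Its difference was 1.20 ± 0.27 (limma adjusted p = 0.0483). The ankyrin repeat gene *ANKRA2* had 200.0 and 120.2 TPM in males against 67.5 and 80.6 TPM in females at E2.5, 108 and 172 against 74.0 and 85.9 TPM at E4.5, and 197 and 211 against 100.2 and 66.2 TPM at E6.5, with a difference of 1.05 ± 0.20 (limma adjusted p = 0.0202). *LURAP1L*, named for its likeness to a leucine-rich adaptor protein gene, had 132 and 133 TPM in males against 58.5 and 80.3 TPM in females at E2.5, 144 and 111 against 107 and 56.8 TPM at E4.5, and 163 and 129 against 56.1 and 60.7 TPM at E6.5, with a difference of 0.98 ± 0.20 (limma adjusted p = 0.0318). In both genes males were above females at every stage.

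**Figure D4:**
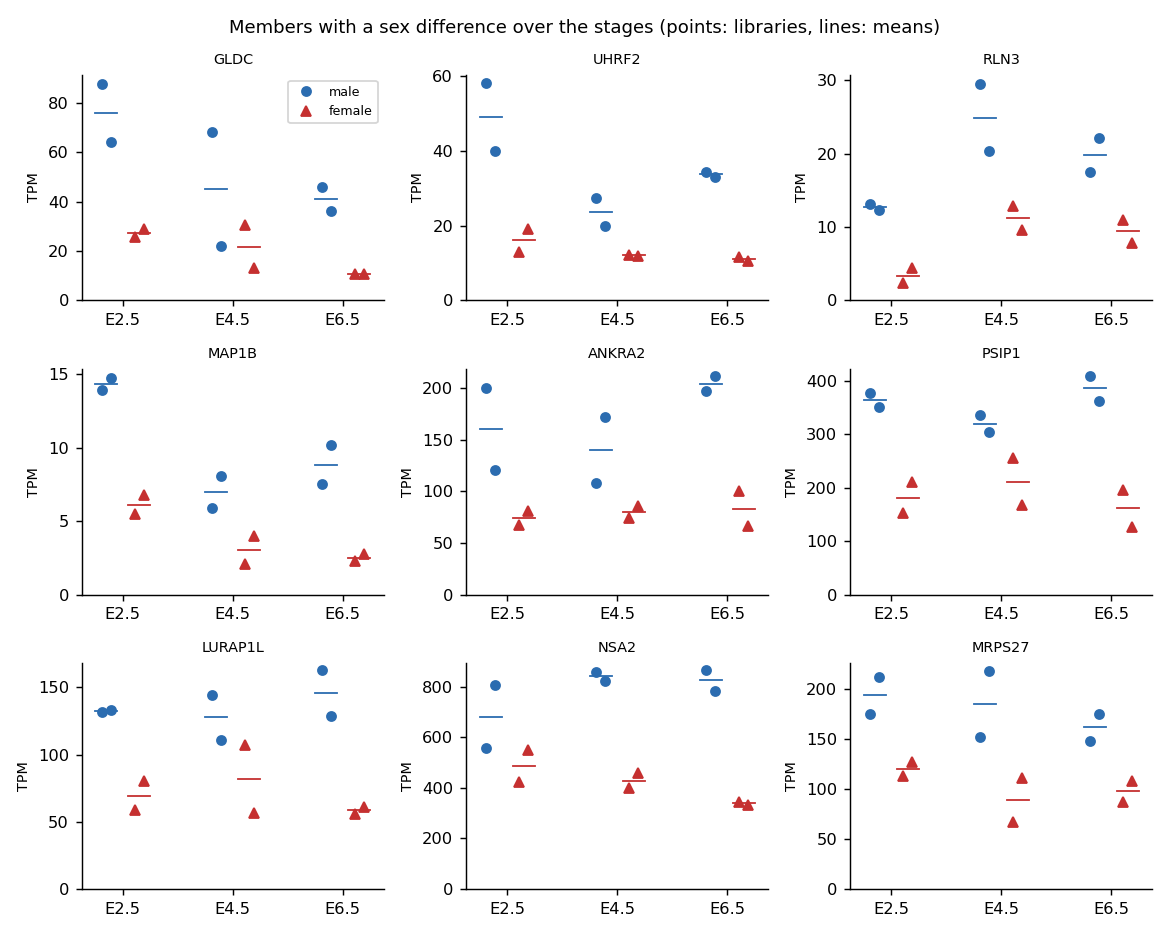
TPM of the 9 members called over the stages, by stage and library (blue circles, male libraries, red triangles, female libraries, short lines, means of the 2 libraries). Male means lay above female means in every panel and stage, and *UHRF2* shows no overlap of the sexes at any stage.

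Among members with a mean of 5 TPM or more, the highest estimates also included that of *VLDLR*, a lipoprotein receptor, at 1.51 ± 0.35. *ERMP1*, an endoplasmic reticulum metallopeptidase, had 1.41 ± 0.33, and *TNPO1*, a nuclear import receptor, had 1.34 ± 0.37. None of these passed (limma adjusted p = 0.0528, 0.0582 and 0.138). *JAK2*, the kinase of cytokine receptors, had 9.08 and 8.56 TPM in male and 1.50 and 6.43 TPM in female libraries at E2.5 and a difference over the stages of 0.66 ± 0.34 (limma adjusted p = 0.740). At a mean of 5 TPM or more, *SLC1A1*, a glutamate transporter, had the smallest difference, at 0.13 ± 0.58. ENSGALG00000013512 followed at 0.36 ± 0.16. The difference of *SLC1A1* averaged stages of opposite direction, as given below, and this gene reached that mean only through the E6.5 female libraries. ENSGALG00000013512 was nevertheless above 300 TPM in every library, with 645 and 577 TPM in male and 472 and 464 TPM in female libraries at E6.5. The lncRNA ENSGALG00000045015 and the chaperone-related gene *CDC37L1* completed the 5 lowest, at 0.63 ± 0.44 and 0.65 ± 0.21. None of these 4 passed (limma adjusted p = 0.993, 0.640, 0.862 and 0.264). Of all 65 tested members, at any level, 60 had a positive estimate, and the lowest estimate was -1.37 for ENSGALG00000051419.

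Most other members of moderate level shared the male excess without passing the test. *RFX3*, a transcription factor of cilia genes, had 0.70 ± 0.25, and *ENC1*, an actin-binding protein gene, had 1.13 ± 0.30 (limma adjusted p = 0.360 and 0.115). *RIC1*, which acts in Golgi transport and starts next to gga-mir-6669, had 1.36 ± 0.32 with males above females at every stage (limma adjusted p = 0.0588).

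Besides ENSGALG00000045548 and ENSGALG00000045015, the lncRNAs with a mean of at least 5 TPM were ENSGALG00000044150 and ENSGALG00000048281. ENSGALG00000044150 had 5.93 and 13.2 TPM in males against 5.06 and 5.42 TPM in females at E2.5, 12.1 and 37.9 against 7.33 and 11.0 TPM at E4.5, and 22.4 and 21.3 against 4.71 and 14.8 TPM at E6.5, with males above females at every stage. ENSGALG00000048281, which ends just before the start of *UHRF2*, had 21.8 and 14.9 TPM in male and 8.54 and 5.15 TPM in female libraries at E6.5 and a difference over the stages of 0.97 ± 0.29 (limma adjusted p = 0.175). ENSGALG00000044150 had a difference of 1.04 ± 0.35 (limma adjusted p = 0.308), so no lncRNA passed over the stages.

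The number of calls over the stages rested on single libraries. Of the E2.5 libraries, 3 calls were left without the first male, 2 without the second male, 1 without the first female and 5 without the second female. Among all genes, 73 of 13950, 36 of 13984, 32 of 14057 and 71 of 13991 were then higher in males. Without the first E4.5 male there were 5 calls, of which 4 were among the 9. There were 12 without the second E4.5 male, 10 without the first E4.5 female and 8 without the second. All genes then had 95 of 13836, 120 of 14112, 145 of 13844 and 126 of 14105 higher in males. Without an E6.5 library, 1 was left without the first male, 0 without the second male, 3 without the first female and 1 without the second female. Higher in males among all genes were then 50 of 14028, 20 of 14077, 51 of 14030 and 36 of 13948. With both first E4.5 libraries left out, a choice made after seeing the data, there were 24 calls, which held all 9. All were higher in males, as were 211 of 586 genes in the rest of Z and 251 of all 13530 genes tested. *UHRF2* passed in 18 of 19 alternatives, *PSIP1* in 14, *ANKRA2* in 13 and *NSA2* in 12.

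Within stages, the count of calls depended on the setting at E2.5 as well as at E6.5. At E2.5, 0 of 56 tested members were called in either direction by limma (0.0565% of all genes tested for males, 0.186% for females). At an unadjusted p under 0.05, however, 31 had a higher male and 1 a higher female level. The rest of Z had 315 and 3 of 539 genes at that p, and all genes had 1304 and 134 of 12380. Without the second male library, the median difference on the log2(TPM + 1) scale was 1.08 in the members and 1.18 in the rest of Z. Among genes with a mean of at least 5 TPM, 4 of 43 members were called at E2.5, all higher in males. In that setting 37 of 409 genes in the rest of Z and 48 of all 8798 genes tested were called higher in males. Both male libraries were above both female libraries in 46 of the 56 members (36.5% of all genes tested) and below them in 2 (7.11%). At E4.5, 0 of 53 tested members were called (0% and 0.0164% of all genes tested). At an unadjusted p under 0.05 there were 4, all higher in males, against 40 of 530 genes in the rest of Z. Libraries with the same number were more alike at this stage than those of the same sex. With the replicate number as a block in the fit, 3 members were called higher in males and 30 had an unadjusted p under 0.05. The rest of Z then had 27 and 275 of 530 genes higher in males. The male libraries were both higher in 27 of the 53 members (9.18% of all genes tested) and both lower in 0 (8.01%). The rest of Z gave 441 of 539 genes at E2.5 and 265 of 530 at E4.5 by the same count.

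At E6.5, 9 of 58 tested members were called higher in males (0.806% of all genes tested) and 0 higher in females (1.38%). At an unadjusted p under 0.05 there were 36 and 3, against 305 and 14 of 533 genes in the rest of Z. Among all 12028 genes tested, 924 and 837 were under that p. Both male libraries were above both female libraries in 45 of the 58 members (28.2% of all genes tested) and below them in 4 (18.2%). The rest of Z had 417 and 22 of 533. *GLDC*, *UHRF2*, *NSA2*, *PSIP1*, *ANKRA2* and *LURAP1L* were called both here and over the stages. The differences of *GLDC* and *UHRF2* at E6.5 were 1.84 ± 0.29 and 1.52 ± 0.29 (limma adjusted p = 0.0196 and 0.0356). The other 3 were *KANK1*, the lncRNA ENSGALG00000045548 and gga-mir-6669. Without the first female library, the median difference was 1.07 in the members and 0.94 in the rest of Z. It was 1.03 and 0.90 without the first male library, and 0.85 and 0.81 without the second. The count of called members was 0 without a filter on low values and 0 with limma-voom on the recovered reads.

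*KANK1*, which codes for a regulator of the actin cytoskeleton, had 38.1 and 27.1 TPM in male and 8.85 and 9.15 TPM in female libraries at E6.5 (difference 1.73 ± 0.31, limma adjusted p = 0.0318). At E4.5 its libraries overlapped, with 80.2 and 16.8 TPM in males and 34.3 and 13.1 TPM in females. ENSGALG00000045548 had 23.8 and 33.3 TPM in male and 6.56 and 6.04 TPM in female libraries at E6.5 (difference 2.00 ± 0.32, limma adjusted p = 0.0204). This lncRNA (chrZ:25268534-25323157) overlaps *MRPS27* (chrZ:25266792-25313284) on the opposite strand and extends beyond it. The library kit does not mark strand, so reads of the 2 genes cannot be told apart where they overlap. The annotated microRNA locus gga-mir-6669 had 65.3 and 64.4 TPM in male and 23.2 and 23.5 TPM in female libraries at E6.5, but only 11.6 and 26.2 TPM in males against 13.1 and 31.1 TPM in females at E2.5, where the sexes overlapped. Its E6.5 difference was 1.44 ± 0.26 (limma adjusted p = 0.0311). The locus is only 108 bases long, so few reads stood behind these values. They were 45 and 54 reads in male and 19 and 18 in female libraries at E6.5. At E2.5 they were 8 and 22 reads in males and 10 and 18 in females. These libraries were not made for small RNA, and the values are for reads on the locus, not for the mature miRNA.

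An lncRNA chosen after its values were seen was higher in females at more than 1 stage. ENSGALG00000051419 lies at chrZ:27317307-27383989 on the minus strand, between *SLC1A1* (chrZ:27065681-27123343) and *CDC37L1* (chrZ:27444539-27453951). The table gives no gene the name MHM, and whether this lncRNA belongs to the MHM region was not tested. It had 2 and 8 reads in the E2.5 male libraries against 148 and 137 in the female ones, that is 0.0866 and 0.286 TPM against 5.80 and 7.09 TPM. The summed reads per read on genes were 37.5 times higher in females (95% exact interval 20.1 to 79.0, which covers counting error only). At E4.5 only the second female library held reads, 8 of them. At E6.5 neither male library held a read, and the female libraries held 11 and 77.

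A floor of 3 reads was set for the male group, and reads were taken per read on genes. The female reads of ENSGALG00000051419 were 2.65 times that floor at E4.5 and 27.7 times at E6.5. These ratios leave out counting error in the female reads, and at E4.5 they rest on 8 reads in 1 library. Most of the E6.5 reads came from the second female library, and the ratio to the floor was 6.55 without it. Female libraries were above male ones without overlap at E2.5 and E6.5. At E4.5 the first female library had no read, the same as the males. The difference at E2.5 was -2.65 ± 0.57 on the log2(TPM + 1) scale (limma adjusted p = 0.0796) and -1.37 ± 0.39 over the stages (limma adjusted p = 0.150), neither of which passed. It reached 1 TPM in 2 libraries at E2.5 only through the females, the sex in which it was high, so it had to differ, and the test is given as a description. Over its 8 alternatives at E2.5 the adjusted p ran from 0.000847 to 0.515 and was under 0.05 in 3. The other 3 lncRNA genes between *SLC1A1* and *CDC37L1* had at most 2 reads in a library.

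Its coding neighbours were higher in males at E2.5, where the lncRNA was highest in females. The neighbours' ratios were 2.05 for *CDC37L1*, 1.60 for *AK3* and 1.77 for *SLC1A1* at E2.5, against a median of 2.33 in the rest of Z. *CDC37L1* had 59.4 and 54.0 TPM in male and 27.7 and 27.5 TPM in female libraries at E2.5, and *AK3*, which overlaps it on the opposite strand, had 11.1 and 13.7 TPM in male and 5.96 and 9.52 TPM in female libraries at E2.5. *SLC1A1* had 3.15 and 3.74 TPM in male and 0.713 and 3.18 TPM in female libraries at E2.5. The sexes did not overlap for *CDC37L1* and *AK3* and overlapped for *SLC1A1*. Over the stages, among members with a mean of 5 TPM or more, *SLC1A1*, *AK3* and *CDC37L1* were among the 5 with the smallest differences. These were 0.13, 0.46 and 0.65, against a median of 0.92 in the rest of Z. *SLC1A1* reached a mean of 5 TPM (5.18 TPM) only through the E6.5 female libraries, in which it was high. Its place among the lowest was thus partly set by that filter and is given as a description. *RCL1*, the next coding gene beyond *AK3*, had 0.87. At E6.5 *SLC1A1* and *AK3* were high in the second female library. A relation of these values to the lncRNA was not tested.

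Some members stood high in the second female library at E6.5. Of 57 members compared between the 2 female libraries, 11 were at least 2-fold higher in the second and 3 at least 2-fold lower. The median ratio was 0.981. This count covers the members only, so whether it differs from that of other genes was not tested. *TMEM174*, which codes for a membrane protein, had 0.981 and 0.192 TPM in male and 3.88 and 35.6 TPM in female libraries at E6.5. *SLC1A1* had 2.57 and 2.60 TPM in male and 5.07 and 33.7 TPM in female libraries at E6.5, and the lncRNA ENSGALG00000046481 had 1.09 and 2.41 TPM in male and 6.46 and 28.3 TPM in female libraries at E6.5. In these 3 genes each female library exceeded each male library, and the second female library was 4.38 to 9.16 times the first. The lncRNA ENSGALG00000051419 was 7.49 times higher in the second than in the first. *AK3* and the transcription factor gene *NFIB* were high in the second female library alone, with 9.01 and 32.3 TPM and 1.94 and 9.48 TPM in females against 17.3 and 18.5 TPM and 2.37 and 2.73 TPM in males. The other 5 were ENSGALG00000044150, *PDCD1LG2*, *GLIS3*, *ARHGEF28* and ENSGALG00000048270, of which ENSGALG00000044150 had the highest level, at 14.8 TPM in the second library.

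None of the differences of *TMEM174*, *SLC1A1* and ENSGALG00000046481 passed in the main fit of all 4 libraries. With the replicate number as a block in the fit, ENSGALG00000046481 was called higher in females (limma adjusted p = 0.0179). A block crossing the numbers, added after seeing the data, called *TMEM174* and ENSGALG00000046481 higher in females (limma adjusted p = 0.00732 and 0.0364). Without the first female library the differences were -3.27 for *SLC1A1*, -3.45 for ENSGALG00000046481 and -1.56 for *NFIB*. The E6.5 differences were -3.12 ± 0.81 for *TMEM174*, -2.02 ± 0.70 for *SLC1A1* and -2.47 ± 0.61 for ENSGALG00000046481 (limma adjusted p = 0.110, 0.218 and 0.0952). *TMEM174* reached 1 TPM in 2 libraries at E6.5 only through the females, in which it was high. *TMEM174*, *SLC1A1* and ENSGALG00000046481 entered the median ratio at E6.5 only through the females as well. Markers of kidney tubule and duct, a list of 8 genes added after seeing the data with 6 in the table, summed to 137 TPM in the second and 21.0 TPM in the first E6.5 female library. They summed to 0.914 and 2.81 TPM in the E6.5 males, to between 1.05 and 15.8 TPM at E4.5 and to between 3.42 and 3.97 TPM at E2.5. *SLC34A1*, a phosphate transporter of the kidney tubule, made up 102 and 14.4 TPM of the female sums. *CUBN* made up 17.8 and 2.69 TPM and *PAX2* 8.17 and 2.92 TPM. In the E6.5 males *SLC34A1* had 0.223 and 0.306 TPM, so it reached 1 TPM in 2 libraries only through the females, in which it was high. Its call as higher in females at E6.5 (limma adjusted p = 0.0168) is therefore given as a description. The part of such cells in these results was not tested. With the second female library left out, the members' median log2 ratio at E6.5 was 0.96, against 1.10 with it.

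**Figure D5:**
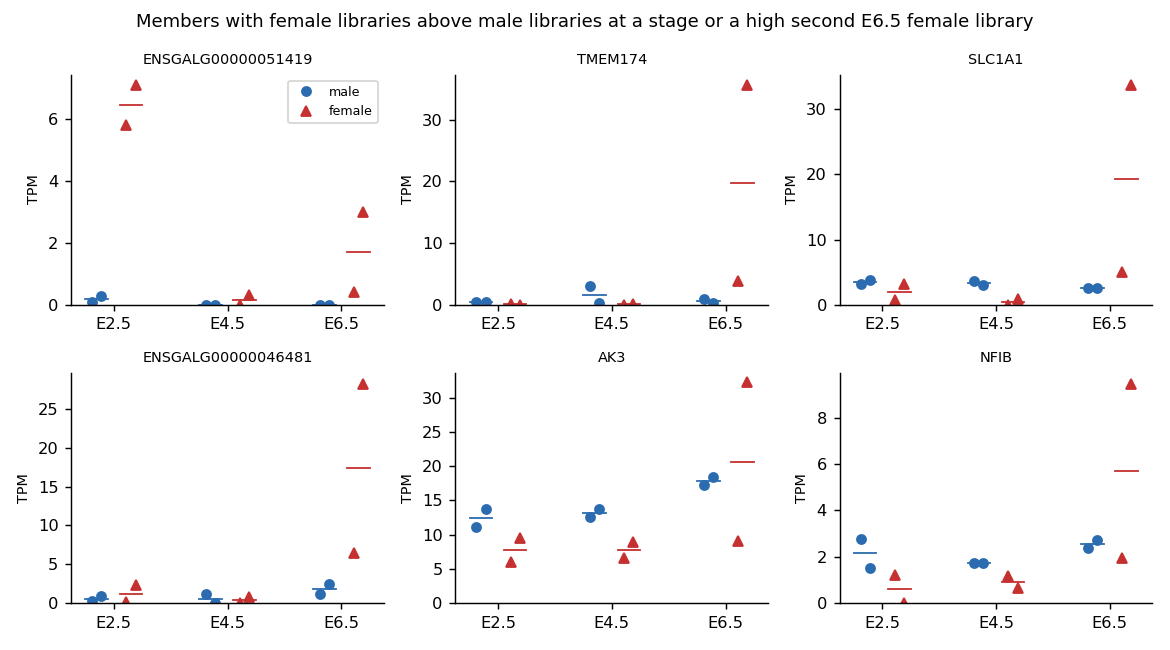
TPM of 6 members by stage and library (blue circles, male libraries, red triangles, female libraries, short lines, means). ENSGALG00000051419 was above both males in both females at E2.5 and E6.5, and the other 5 were highest in the second female library at E6.5.

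No tested member passed the test for a change of its sex difference between stages. From E2.5 to E6.5, limma called 0 of 65 members rising and 0 falling (0% of all genes tested in either direction). At an unadjusted p under 0.05 there were 4 and 5, against 7 and 23 of 604 genes in the rest of Z. From E4.5 to E6.5 limma called 0 and 0 (0% in either direction), with 2 and 3 at that p. The rest of Z again had 7 and 23 of 604. Without the first E6.5 female library 1 and 2 members were called falling. The level over both sexes passed the test in 0 members from E2.5 to E6.5 (0.919% of all genes tested rising and 1.06% falling), with 8 rising and 7 falling at an unadjusted p under 0.05. Without the first E6.5 female library, and without a filter on low values, 1 member was called rising.

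The MSL complex, which in flies acetylates histone H4 on the male X chromosome, was measured beside the members. Of its 4 listed genes 3 were in the table, and they summed to 42.2 to 80.5 TPM per library. limma called 0 of these 3 over the stages. The germ cell, gonadal somatic and red blood cell marker lists likewise had 0 genes called between the sexes over the stages. Between E2.5 and E6.5, 4 of the 6 red blood cell markers tested were called lower at E6.5, and *SLC34A1* was called higher (limma adjusted p = 0.0483). *SLC34A1* had only 0.223 and 0.306 TPM in the E6.5 male libraries, so this rise came from the female libraries.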

How the data were processed

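RNA from SSEA-1-positive PGCs was sequenced in 12 libraries, 2 pools for each sex and stage. Trimming by the authors used Trimmomatic 0.39, Trim Galore 0.6.6 and Cutadapt 3.1. Mapping was to GRCg6a with STAR 2.7.3a, and reads with a unique position were assigned to genes with featureCounts 2.0.1. The authors deposited TPM with gene length and position. How counts were turned into TPM is not given in the sources used here. TPM times length was a whole multiple of 1 read within 0.01 reads for 100% of low values in every library, which gave the read counts. On a gene of 1000 bases, 3 reads came to 0.386 to 0.702 TPM.

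Members were Z genes with a smallest start from 24 to 32 Mb with 1 gene set aside, and some results are not reported here. The members and lists were chosen with earlier results of these data known. Sexes were compared with limma 3.58.1 in R 4.3.3 (lmFit and eBayes with a trend) on log2(TPM + 1), which understates changes of low genes. A gene was tested where 2 or more of the libraries fitted had at least 1 TPM, with Benjamini-Hochberg adjustment over all of them. With 2 libraries a group, the smallest two-sided exact permutation p is 0.333. Replicates were pools of separate embryos. Median ratios were taken over genes whose mean reached 5 TPM. The procedure was tested on simulated data. Plots were made in Python 3.11.15 with matplotlib 3.10.9.

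Named genes were every called member, the 5 lowest and 5 highest sex differences over the stages among members with a mean of 5 TPM or more, and the 10 most abundant. Members that are higher in females over the stages at that level, changed between stages by the test, or bear the name MHM were also to be named, and there were none. Other members are named for their role or after their values were seen. The alternatives were another pseudocount, filters, median-of-ratios scaling on autosomal genes, limma-voom on the recovered reads, the replicate number as a block, all 12 libraries in one fit, other borders of the stretch, protein coding genes alone, and each library left out.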

Additional observations from a re-analysis of the deposited data

Results flagged for a closer look

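The male minus female difference of *TMEM174* moved by -3.55 on the log2(TPM + 1) scale from E2.5 to E6.5 (limma adjusted p = 0.617) and by -4.18 from E4.5 to E6.5 (limma adjusted p = 0.350). At E2.5 and E4.5 each male library was above each female library, at under 4 TPM, and at E6.5 the order was the opposite. Few reads stood behind the earlier order of *TMEM174*, which was too low to be tested within E2.5 or E4.5. It had 9 and 10 reads in males against 2 and 0 in females at E2.5, and 47 and 5 against 0 and 3 at E4.5. A turn from males above to females above was also seen for *SLC1A1* from E4.5 to E6.5, at -3.70 (limma adjusted p = 0.437). The lncRNA ENSGALG00000045015 turned the other way from E2.5 to E6.5, by 1.40 (limma adjusted p = 1), with males below females at E2.5 and above them at E6.5. None of these 4 changes passed the test, and each was picked for opposite directions in the libraries.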

How the results depend on the processing

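The replicate number as a block gave 12 called members at E2.5 (11 higher in males, 1 in females), 3 at E4.5 (30 against 4 at an unadjusted p under 0.05), 9 at E6.5 (8 and 1) and 22 over the stages. Among all genes, this block called 426 and 137 of 12380 higher in males and females at E2.5 and 31 and 20 of 12228 at E4.5. It called 77 and 251 of 12028 at E6.5 and 257 and 37 of 14153 over the stages. The rest of Z had 151 and 0 of 539, 27 and 0 of 530, 35 and 10 of 533, and 220 and 0 of 604. Correlations of the deviations of same-numbered libraries were 0.233, 0.615 and -0.124 at the 3 stages, so the numbers were not taken as pairs, although at E4.5 libraries with the same number were more alike (r of 0.901 and 0.974) than those of the same sex. A block crossing the numbers at E6.5, added after seeing the data, gave 13 (11 and 2), against 193 and 370 of all 12028 genes. A minimum mean of 5 TPM gave 4 at E2.5, all higher in males, against 48 higher in males and 21 in females of all 8798 genes. Median-of-ratios scaling, which moved the median of all genes at E2.5 from 0.34 to 0.05, gave 1 at E2.5, higher in females, 3 at E6.5 and 4 over the stages. It called 2 and 26 of all 12380 genes higher in males and females, then 19 and 65 of 12028 and 44 and 30 of 14153. Over the stages limma-voom gave 9, 8 higher in males and ENSGALG00000051419 higher in females. Of all 14153 genes, 95 and 31 were called in these directions. At E6.5 no filter gave 0, limma-voom 0 and all 12 libraries 1. All genes had 1 and 9 of 18200, 1 and 11 of 12028, and 9 and 141 of 12028 called higher in males and females. Leaving out both first E4.5 libraries gave 24 over the stages, and no filter gave 1 change from E2.5 to E6.5.

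Leaving out single libraries gave 0 to 12 calls over the stages. With 0 members called, 20 of all 14077 genes were higher in males, and with 12 called, 120 of all 14112 genes were. Within a stage, and for changes between stages, such a fit leaves 1 library in a group, so its calls are not listed in this section. Without single libraries the median log2 ratios were 0.99 to 1.33, 0.68 to 0.94 and 0.96 to 1.31 at the 3 stages. The differences from the rest of Z were -0.17 to 0.077, -0.24 to 0.050 and 0.14 to 0.28. The median was 0.75 with median-of-ratios scaling at E2.5, 0.79 with protein coding genes and 0.83 with the pairing by replicate block at E4.5, and 0.76 over means of 20 TPM at E6.5. The difference was -0.072 and -0.029 at E4.5 for the same settings, and at E6.5 -0.12 over means of 20 TPM, 0.27 for 25 to 31 Mb and 0.082 for 22 to 34 Mb.

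*SLC1A1* over the stages reversed to -0.26 with limma-voom, -0.29 without both first E4.5 libraries, -0.10 without the first E2.5 female, -0.09 and -0.03 without the first and second E4.5 males, and -0.17 without the first E4.5 female. Leaving out single libraries put it between -0.17 and 0.71. The cause of these shifts was not tested. For single genes, 410 fits under an alternative kept the direction and left the gene called or not called as in the main fit. These include genes that were not called in the main fit. Of the others, 132 kept the direction but lost a call, and 24 gained one. Depth limits the members that had 3 reads or fewer in every library, for which no difference was detectable.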
